A study of Mus musculus with 2 samples.

Results

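The genes described here are 9 core members of the extrinsic apoptosis and necroptosis machinery: Casp8, Fadd, Ripk1, Ripk3, Mlkl, Cflar, Birc2, Birc3 and Xiap. They were chosen by symbol, without use of their values, and each matched 1 of the 55536 gene entries in the deposited tables. Polyadenylated RNA was sequenced from bone marrow-derived macrophages, phagocytes that are grown in culture from marrow precursors, of C57BL/6J mice in 1 group of 2 biological replicates. All cells had been given 100 ng/mL of Lipid A, the lipid anchor of lipopolysaccharide and a ligand of Tlr4, for 12 h, had then been kept without it for 12 h, and were restimulated with the same dose for 30 min. Another label of these libraries gives the agent as lipoprotein A. Both libraries share this history, and cells without Lipid A or with a single dose are not analysed here, so each value describes the restimulated state and none is a response to treatment. The replicates have separate biosamples under a shared donor record, sex and age were not collected, and the labels do not say whether the cultures or animals were separate, so the spread between libraries may be technical.

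These proteins decide between survival and 2 forms of programmed death after a death receptor or Toll-like receptor has been engaged. Fadd recruits the protease Casp8, which starts apoptosis and cuts Ripk1 and Ripk3. When Casp8 is blocked, the kinases Ripk1 and Ripk3 assemble, and Ripk3 phosphorylates Mlkl, the protein that permeabilises the plasma membrane in necroptosis. Cflar, which encodes c-FLIP, pairs with Casp8 and restrains it, and the inhibitor of apoptosis proteins encoded by Birc2, Birc3 and Xiap are ubiquitin ligases that hold Ripk1 or caspases in check. Macrophages that have sensed lipopolysaccharide are a textbook setting for this choice, since Tlr4 reaches Ripk3 through the adaptor Ticam1 and also switches on survival genes through NF-kB.

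All 9 genes were expressed, and the restraining gene Cflar was the most abundant of them while the adaptor Fadd was the least. Levels are in TPM, a share of transcripts that is corrected for their length and scaled to 1 fixed total in each library. Genes can therefore be set side by side by their RNA, but TPM does not give amounts of protein. Of the 9 genes, 9 reached 1 TPM in both libraries, against 48.7% of all 22028 protein-coding genes, and 8 reached 10 TPM in both, against 30.3%. By mean TPM the order was Cflar, Mlkl, Casp8, Birc3, Ripk1, Xiap, Birc2, Ripk3 and Fadd. The ranges of the libraries overlapped for 2 pairs of neighbours in that order, Casp8 with Birc3 and Birc2 with Ripk3. These pairs could not be placed in order by whole-gene TPM, whereas all other neighbours were apart in both libraries of the alignment-derived table. From protein-coding transcripts only, Casp8 (104 and 86.8 TPM) lay above Birc3 (64.2 and 79.0 TPM) there, while Birc2 and Ripk3 still overlapped. Mlkl and Casp8 were only narrowly apart, at 106 and 104 TPM in replicate 1, where their deposited TPM intervals overlapped. In the FASTQ-derived table Birc3 (102 and 153 TPM) came between Cflar and Mlkl (117 and 129 TPM), and the ranges of Birc3 and Mlkl overlapped. With protein-coding transcripts only, Birc3 had 62.1 and 75.0 TPM in that table, below Mlkl at 116 and 128 TPM. Over the 9 genes the medians were 53.3 TPM (replicate 1) and 43.5 TPM (replicate 2), against 17.5 and 16.4 TPM for all 10727 protein-coding genes detected.

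**Figure D1:**
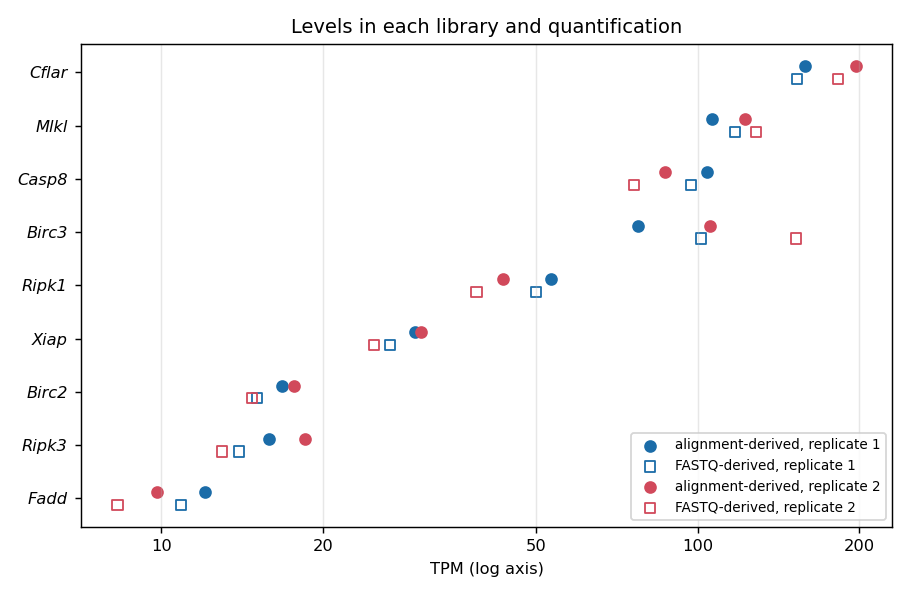
Level of each of the 9 genes in TPM on a log axis, with filled circles for the alignment-derived table and open squares for the FASTQ-derived table, and 1 colour per replicate. Cflar is highest at 158 and 197 TPM and Fadd lowest at 12.1 and 9.82 TPM in the alignment-derived table, and the FASTQ-derived values of Birc3 lie to the right of its alignment-derived values.

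Casp8, the initiator protease, was abundant in both libraries and Fadd, the adaptor that recruits it, was scarce beside it. Casp8 (ENSMUSG00000026029.14, mm10 chr1:58795374-58847503, plus strand) had 104 TPM in replicate 1 and 86.8 TPM in replicate 2, a mean of 95.5 ± 12.3 TPM (SD, n = 2). Its mean level lay above that of 86.9% of the protein-coding genes detected. Fadd (ENSMUSG00000031077.7, chr7:144577318-144582463, minus strand) had 12.1 and 9.82 TPM, a mean of 10.9 ± 1.58 TPM (SD, n = 2), above 37.6% of the genes detected. Faddos, which overlaps Fadd on the opposite strand, had 0.10 and 0.06 TPM. Replicate 1 was the higher library for both genes. The TPM of Fadd over that of Casp8 was 0.116 in replicate 1 and 0.113 in replicate 2. The RNA ratio of adaptor to protease thus differed little between the libraries, although both levels did.

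All 4 Casp8 transcripts are annotated as protein coding, and each passed the 10% share at which a transcript was named. Casp8-202 led in both libraries and in both quantifications, with 68.4% and 64.0% of the gene's TPM in the alignment-derived table and 62.7% and 60.7% in the FASTQ-derived table. The quantifications divided the rest differently. Casp8-204 held 0.202% and 0.311% in the alignment-derived table but 13.4% and 13.3% in the FASTQ-derived table, and Casp8-201 held 25.6% in both libraries of the former and 14.3% in both of the latter. Summing the transcripts by start, a grouping chosen after the values were seen, removed most of this difference. Casp8-201 and Casp8-204, which begin upstream, together took 25.8% and 25.9% of TPM by alignment and 27.7% and 27.6% from FASTQ, and Casp8-202 and Casp8-203 took the remaining 74.2% and 74.1%, or 72.3% and 72.4%. The division between coding lengths was not stable in the same way. Transcripts with 480 codons (Casp8-201 and Casp8-202) held 94.0% and 89.6% by alignment but 77.0% and 75.0% from FASTQ, and those with 500 codons (Casp8-203 and Casp8-204) held the rest. Casp8-203 carries 60 more bases than Casp8-202 at the start of the coding sequence, spread over 2 exons between mm10 positions chr1:58804083-58823942 on the plus strand. They are shown in capitals, followed in lower case by the first 30 coding bases of Casp8-202, since these 60 bases are the whole coding difference between the transcripts.
Casp8-203: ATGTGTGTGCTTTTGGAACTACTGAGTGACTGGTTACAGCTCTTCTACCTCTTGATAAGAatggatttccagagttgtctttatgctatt

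Cflar, the restraining partner of Casp8, was the most abundant gene of the set and was higher in replicate 2. Cflar (ENSMUSG00000026031.15, chr1:58711508-58758884, plus strand) had 158 TPM in replicate 1 and 197 TPM in replicate 2, a mean of 178 ± 27.3 TPM (SD, n = 2), above 92.8% of the genes detected. Casp8 was lower in the library in which Cflar was higher, and the TPM of Cflar over that of Casp8 was 1.52 in replicate 1 and 2.27 in replicate 2. Cflar therefore exceeded Casp8 in both libraries, and it also did so in the FASTQ-derived table, at 1.58 and 2.40, and with protein-coding transcripts only, at 1.33 and 1.99.

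Cflar is known to encode a long form, with a caspase-like domain that lacks protease activity, and short forms that end before that domain. Cflar-205, with 481 codons, held 69.8% of the gene's TPM in replicate 1 and 63.9% in replicate 2, and Cflar-204, with 215 codons, held 17.4% and 24.0%. The FASTQ-derived shares were 66.4% and 60.5% for Cflar-205 and 17.6% and 24.0% for Cflar-204. The longer coding sequence led in both libraries and both tables, and the share of the shorter one was larger in replicate 2 in both tables. By alignment the log2 ratio of replicate 2 over replicate 1 was 0.83 for Cflar-204 and 0.24 for Cflar-205. Among Cflar transcripts below the 10% share with at least 20 counts in each library, it ranged from -0.17 to 0.89. The larger share was thus not particular to the shorter coding sequence. Cflar-204 and Cflar-205 also begin at different positions, 58713294 and 58711560. Cflar-204 rested on 1340 and 1736 expected counts, and the TPM of Cflar-204 over that of Cflar-205 was 0.249 in replicate 1 and 0.375 in replicate 2 (0.265 and 0.396 in the FASTQ-derived table). The transcripts share 612 coding bases and then part, as shown by the last 30 shared bases in lower case and the first 33 bases of each that the other lacks in capitals.
Cflar-205: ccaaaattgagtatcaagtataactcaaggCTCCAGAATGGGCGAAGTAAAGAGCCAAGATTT
Cflar-204: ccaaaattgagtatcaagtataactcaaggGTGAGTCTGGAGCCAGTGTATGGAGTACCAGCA
In mm10 the capitals of Cflar-205 lie at chr1:58735658-58735690 and those of Cflar-204 at chr1:58732327-58732359, both on the plus strand. In Cflar-204 the first base of its own, 58732327, directly follows the last shared base, 58732326, so this transcript reads on past the exon end that Cflar-205 uses. The 33 bases are all the coding sequence that Cflar-204 has of its own, 11 codons, whereas Cflar-205 has 831 coding bases of its own.

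The kinases of the necroptosis arm stood at different levels, with Ripk1 above Ripk3, and Mlkl, the target of Ripk3, was above both. Ripk1 (ENSMUSG00000021408.15, chr13:34002363-34037147, plus strand), the kinase shared by survival and death signalling, had 53.3 TPM in replicate 1 and 43.5 TPM in replicate 2, a mean of 48.4 ± 6.96 TPM (SD, n = 2). Ripk3 (ENSMUSG00000022221.14, chr14:55784995-55788865, minus strand), the kinase that activates Mlkl, had 15.9 and 18.6 TPM, a mean of 17.2 ± 1.92 TPM (SD, n = 2). Mlkl (ENSMUSG00000012519.14, chr8:111311797-111338177, minus strand), the executioner of necroptosis, had 106 and 123 TPM, a mean of 115 ± 11.6 TPM (SD, n = 2), above 89.1% of the genes detected. The 3 ranges did not overlap, and Ripk1 was the only gene of the arm that was higher in replicate 1 by TPM in the alignment-derived table. In the FASTQ-derived table Ripk3 was also higher in replicate 1, at 13.9 TPM against 13.0 TPM in replicate 2.

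The TPM of Mlkl over that of Ripk3 was 6.71 in replicate 1 and 6.61 in replicate 2, and that of Ripk1 over Ripk3 was 3.36 and 2.34. In the FASTQ-derived table the ratios were 8.42 and 9.92 for Mlkl and 3.59 and 2.99 for Ripk1. RNA of the executioner thus exceeded that of its kinase several-fold in both libraries and both tables, while the exact ratio depended on the quantification. The tables also differed on a short Ripk3 transcript annotated as a retained intron, Ripk3-206, which is 478 bases long. It took 2.08% of the gene's TPM in replicate 1 and 18.4% in replicate 2 from 1.95 and 14.4 expected counts, and it was listed at 0 in the FASTQ-derived table. From protein-coding transcripts only, Ripk3 had 15.5 and 14.6 TPM by alignment. The library order was then the opposite of that for the whole gene in the same table. With those transcripts, the TPM of Mlkl over that of Ripk3 was 6.79 and 8.33 by alignment and 8.48 and 10.3 from FASTQ. The tables therefore still differed on this ratio when Ripk3-206 was left out.

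The leading Ripk1 transcripts have coding sequences of the same length, 656 codons, and differ at both ends. Ripk1-201 runs from 34002363 to 34033677 and is 3266 bases long, and Ripk1-203 runs from 34002874 to 34037147 and is 6472 bases long. Ripk1-201 held 83.8% and 81.7% of TPM, and Ripk1-203 held 16.0% and 18.1%. The FASTQ-derived shares were 89.1% and 85.9% for Ripk1-201 and 10.6% and 12.3% for Ripk1-203, so Ripk1-201 led in all 4 tables. Because the transcripts also differ at the 3' end, these shares do not measure use of the starts. RefSeq lists the same 2 starts on GRCm38.p6, and the 100 bases before and 20 after each are shown because they begin the leading transcripts.
Ripk1 upstream start, chr13:34002263-34002382, plus strand: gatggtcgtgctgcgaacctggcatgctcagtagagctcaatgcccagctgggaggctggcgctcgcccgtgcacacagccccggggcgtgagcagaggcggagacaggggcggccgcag
Ripk1 downstream start, chr13:34002774-34002893, plus strand: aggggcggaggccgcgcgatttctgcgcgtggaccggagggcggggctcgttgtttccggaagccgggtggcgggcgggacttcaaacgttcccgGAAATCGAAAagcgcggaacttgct
Capitals mark a match to the core of the interferon-stimulated response element, searched as GAAA, any 2 bases and GAAA, at chr13:34002869-34002878 across the downstream start, and the upstream window had none. The first 432 bases of the Ripk1 locus, up to 34002794, are also covered by Serpinb6a on the opposite strand, a gene with 422 and 334 TPM. Use of strand in counting was not given in the sources used here. Counts at the upstream start of Ripk1 are uncertain for that reason. The downstream start lies outside that overlap.

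Mlkl-202, with 464 codons, held 90.9% of the gene's TPM in replicate 1 and 88.1% in replicate 2, and Mlkl-201, with 472 codons, held 8.21% and 11.3%. The FASTQ-derived table gave Mlkl-202 74.2% and 72.1%, Mlkl-201 10.6% and 12.2%, and the incomplete transcript Mlkl-204 14.3% and 15.1%, a transcript listed at 0 in the alignment-derived table. The shorter of the complete coding sequences led in all 4 transcript tables. Mlkl-201 differs from it by 24 more coding bases, shown in capitals between 30 shared bases on each side and located at chr8:111314941-111314964 on the minus strand in mm10. Mlkl-202 is shown over the same 60 shared bases.
Mlkl-201: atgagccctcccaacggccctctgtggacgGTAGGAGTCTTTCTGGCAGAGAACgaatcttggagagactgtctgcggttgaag
Mlkl-202: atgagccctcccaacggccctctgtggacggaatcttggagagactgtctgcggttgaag

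**Figure D2:**
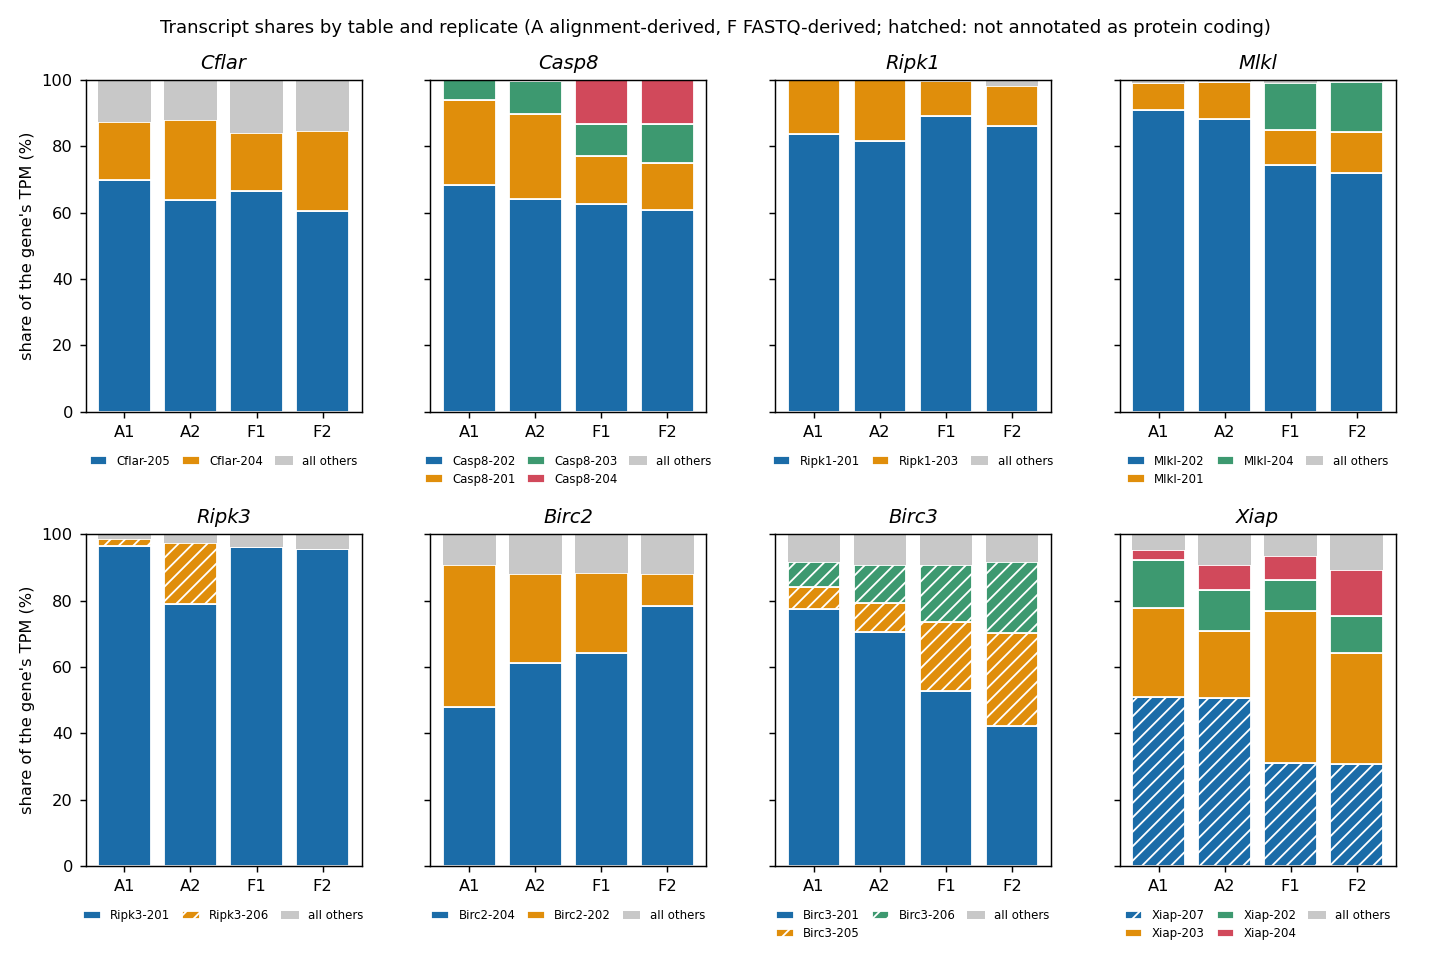
Share of each gene's TPM (%) held by every named transcript in the alignment-derived table (A1 and A2 for replicates 1 and 2) and the FASTQ-derived table (F1 and F2), with the remaining transcripts in grey and hatching for transcripts not annotated as protein coding. The leading transcript is the same in all 4 bars for every gene shown except Xiap, and the hatched share of Birc3 is larger in the FASTQ-derived bars.

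Among the inhibitor of apoptosis genes, Birc3 was the most abundant and Birc2 the least. Birc2 (ENSMUSG00000057367.12, chr9:7818227-7837064, minus strand) encodes cIAP1 and had 16.8 TPM in replicate 1 and 17.7 TPM in replicate 2, a mean of 17.2 ± 0.622 TPM (SD, n = 2). Birc3 (ENSMUSG00000032000.17, chr9:7848699-7873186, minus strand) encodes cIAP2, is a known NF-kB target, and had 77.5 and 105 TPM, a mean of 91.4 ± 19.7 TPM (SD, n = 2). Xiap (ENSMUSG00000025860.15, chrX:42059679-42109656, plus strand), a direct inhibitor of caspases, had 29.7 and 30.5 TPM, a mean of 30.1 ± 0.552 TPM (SD, n = 2). Birc2 and Xiap differed by under 1 TPM between the libraries, whereas Birc3 had the second largest SD of the 9 genes after Cflar.

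Birc2 and Birc3 lie next to each other on chromosome 9, and the TPM of Birc2 over that of Birc3 was 0.217 in replicate 1 and 0.168 in replicate 2. With the FASTQ-derived table it was 0.149 and 0.0966, with a mean of 0.123, and Birc3 exceeded Birc2 in both libraries under either table. The difference between the tables went with 2 short transcripts of Birc3 annotated as processed transcripts, Birc3-205 and Birc3-206, which are 355 and 360 bases long and were summed after their values were seen. They took 14.2% and 20.4% of the gene's TPM from 33 and 43 expected counts by alignment, and 37.7% and 49.3% from 195 and 284 estimated counts from FASTQ. The full coding transcript Birc3-201, with 602 codons, held 77.5% and 70.4% by alignment and 52.9% and 42.2% from FASTQ, and it led in all 4 tables. Counted over protein-coding transcripts only, Birc3 had 64.2 and 79.0 TPM by alignment and 62.1 and 75.0 TPM from FASTQ, so the tables differed far less on the coding transcripts than on the gene.

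Xiap was the gene for which the quantifications named different leading transcripts. Xiap-207, a processed transcript of 5407 bases that is not annotated as coding, held 50.9% and 50.6% of TPM by alignment and 31.0% and 30.9% from FASTQ. Xiap-203, which encodes the full 496 codons, held 26.7% and 20.2% by alignment and 45.8% and 33.2% from FASTQ, where it led. With protein-coding transcripts only, Xiap had 13.6 and 14.3 TPM by alignment and 17.6 and 16.4 TPM from FASTQ. The TPM of Xiap over that of Birc2, 1.77 and 1.73 for whole genes, was then 0.890 and 0.879 by alignment and 1.32 and 1.24 from FASTQ, so the order of Xiap and Birc2 turned in the alignment-derived table and not in the other.

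**Figure D3:**
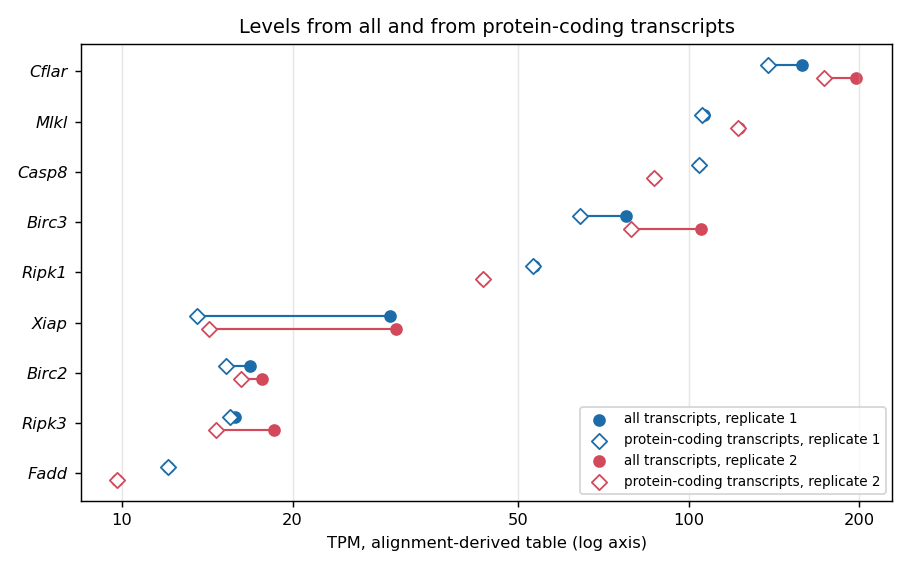
Level of each gene in the alignment-derived table on a log axis, from all transcripts (filled circles) and from transcripts annotated as protein coding (open diamonds), with 1 colour per replicate and a line joining the values of a library. The widest gap is that of Xiap, from 29.7 and 30.5 TPM to 13.6 and 14.3 TPM, while the symbols of Casp8, Fadd and Ripk1 nearly coincide.

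Transcript shares of Birc2 and Xiap also differed between the libraries in ways the gene totals did not show. Birc2-202 and Birc2-204 both encode 612 codons and begin at different positions, 7835255 and 7837057. Birc2-204 held 48.0% of TPM in replicate 1 and 61.2% in replicate 2 by alignment, and 64.3% and 78.4% from FASTQ. Birc2-202 had 575 and 286 expected counts and 350 and 109 estimated counts from FASTQ, a log2 ratio of replicate 2 over replicate 1 of -0.55 and -1.25. The share of Birc2-204 was thus larger in replicate 2 in both tables while the gene total stayed close. Xiap-204, a coding transcript with its own first base, had 161 and 313 expected counts, a log2 ratio of 1.41 (0.98 from FASTQ). It held 3.03% and 7.51% of the gene's TPM by alignment and 7.12% and 14.0% from FASTQ. Xiap-202 held 14.7% and 12.4% by alignment and 9.48% and 11.2% from FASTQ. The tables also divided Birc2 differently, with Birc2-202 at 42.7% and 26.7% by alignment and 24.1% and 9.64% from FASTQ. These transcript ratios have no interval, and the share of all transcripts past 2-fold is not given. They are therefore a description only, and transcripts below the 10% share were left out of it.

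Over the 8 genes with more than 1 transcript, 7 had the same leading transcript in all 4 tables, against 87.0% of 6281 protein-coding genes at 10 TPM or more. By alignment, transcripts not annotated as protein coding held over 10% of TPM in both libraries for 3 of the 9 genes, against 22.6% of 6671 genes. These were Cflar, Birc3 and Xiap. From FASTQ, Birc2 also passed, at 11.7% and 10.7%, giving 4 genes, and no share of all genes is given there. By expected counts the alignment-derived shares were 2.63% and 2.71% for Cflar, 1.24% and 1.80% for Birc3, and 48.5% and 49.9% for Xiap. No gene of the 9 differed 2-fold between the quantifications after centring, against 0.671% of 10581 genes.

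None of the 9 genes differed 2-fold between the replicates. The ratio was taken as replicate 2 over replicate 1 on counts scaled by the trimmed mean of M values (TMM) plus 0.5, for genes with at least 20 counts in each library. By that rule 2.46% of 12471 genes passed 2-fold in either direction, 1.94% higher and 0.521% lower in replicate 2. Of the 9 genes, 6 were higher in replicate 2 by any amount, against 46.4% of all genes. That count includes Ripk3 and Xiap, with log2 ratios of 0.00 and 0.04, which were -0.05 and -0.02 with FASTQ-derived counts. The count is therefore not stable to the quantification. The median log2 ratio of the 9 genes was 0.04 against -0.02 for all genes, and the median of its absolute value was 0.23 against 0.20.

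Birc3, Cflar and Mlkl were the genes whose exact 95% interval lay above 0. The share of all genes whose interval excluded 0 is not given. The sorting of the 9 genes by interval, and the roles named with it, are therefore a description only. Birc3 had 4200 counts in replicate 1 and 4012 in replicate 2, which after scaling gave a log2 ratio of 0.39 (interval 0.32 to 0.45). Cflar had 21434 and 19144 counts and a ratio of 0.29 (0.26 to 0.32), and Mlkl had 5055 and 4412 counts and a ratio of 0.26 (0.20 to 0.32). These are 2 survival genes and the necroptosis executioner. Fadd, Casp8 and Ripk1, the adaptor, the protease and the kinase of the receptor complex, had intervals below 0. Fadd had 1227 and 758 counts and a ratio of -0.24 (-0.37 to -0.11). Casp8 had 5255 and 3282 counts and a ratio of -0.23 (-0.29 to -0.16), and Ripk1 had 5235 and 3300 counts and a ratio of -0.21 (-0.28 to -0.15). The intervals of Birc2 (1292 and 1006 counts, ratio 0.09), Xiap (4533 and 3409 counts, ratio 0.04) and Ripk3 (707 and 517 counts, ratio 0.00) spanned 0. The intervals cover counting error only, and all 9 ratios lay within the central 95% of all genes, from -0.63 to 0.90. That band takes in genes with as few as 20 counts in a library, which widens it. Whether the 9 ratios stood outside the spread of genes with similar counts was not tested.

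**Figure D4:**
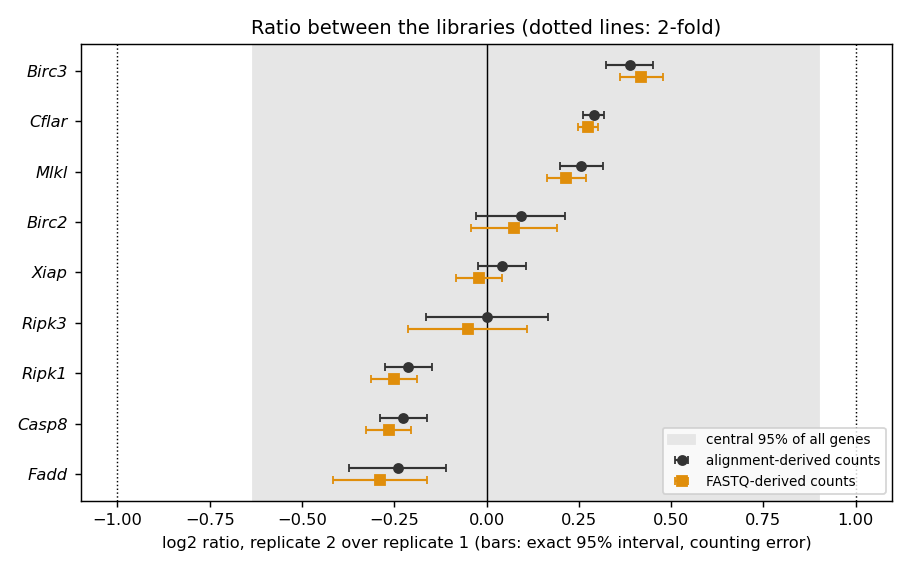
Log2 ratio of replicate 2 over replicate 1 for each gene from alignment-derived counts (circles) and FASTQ-derived counts (squares), with bars for the exact 95% counting interval, a grey band for the central 95% of all genes and dotted lines at 2-fold. Birc3 is highest at 0.39 and Fadd lowest at -0.24 in the alignment-derived counts, and every point lies inside the grey band.

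RefSeq promoter windows of 300 bases, from 250 before to 50 after the start on GRCm38.p6, matched all 9 genes by symbol and gave 13 windows, since some genes have several starts. The response element core, searched on both strands, was in 2 of the 13 windows, those of Cflar and of the downstream Ripk1 start, and in 3.44% of all 32851 windows. The 10-base NF-kB consensus was in 1 of the 13, a Xiap window at chrX:42068420-42068429, and in 8.46% of all windows. TGANTCA, the AP-1 core, was in 0 of the 13 and in 7.81% of all windows. No matches overlapped each other. The Cflar window is shown from 100 bases before to 20 after the start because this gene was the most abundant of the set, with the match in capitals at chr1:58711497-58711506, where the core reads on the strand opposite to the gene.
Cflar, chr1:58711391-58711510, plus strand: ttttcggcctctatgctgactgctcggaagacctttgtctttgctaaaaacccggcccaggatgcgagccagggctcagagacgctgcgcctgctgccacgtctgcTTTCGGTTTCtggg
A match describes the letters in the window and not binding of a factor.

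Upstream of the 9 genes, the ligand Tnf was abundant and differed between the libraries. Of 9 death ligands and receptors, 6 were detected and 1, Tnf, was 2-fold higher in replicate 2. Tnf had 451 TPM in replicate 1 and 1198 TPM in replicate 2, from 17282 and 34552 counts, a log2 ratio of 1.45 (1.43 to 1.48). Its receptor Tnfrsf1a had 178 and 141 TPM, Fas had 11.7 and 16.3 TPM, and Fasl, the ligand of Fas, was at 0 counts throughout, and the depth allows a level of up to 0.0715 CPM in replicate 1 or 0.0975 CPM in replicate 2. The libraries thus held RNA for Tnf and its main death receptor, while Fasl was not detectable at this depth. Bulk RNA does not show which cells carried these transcripts, and stromal markers were also detected.

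All 18 genes of the receptor complex and its ubiquitin enzymes were detected, 11 higher and 7 lower in replicate 2. Tnfaip3 encodes A20, an enzyme that edits ubiquitin chains on Ripk1 and a known NF-kB target, and was the only gene of the list past 2-fold, with 71.6 and 170 TPM and a log2 ratio of 1.38 (1.34 to 1.43). Mapkapk2, a kinase that phosphorylates Ripk1, was the most abundant of the list at 176 and 227 TPM, and Tab3 the least at 5.21 and 3.08 TPM.

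Of 4 other inputs to Ripk3, all were detected and none passed 2-fold. Zbp1, a nucleic acid sensor that binds Ripk3, had 601 and 533 TPM, above each of the 9 genes in both libraries. Ticam1, the adaptor that links Tlr4 and Tlr3 to Ripk3, was the lowest of the list at 27.4 and 23.1 TPM. Downstream of Casp8, all 12 genes were detected, 6 higher and 6 lower in replicate 2 and none past 2-fold. Bak1, a pore-forming protein of the mitochondrial pathway, was highest at 264 and 216 TPM, and Dffb, the nuclease that cuts DNA in apoptosis, was lowest at 1.04 and 1.22 TPM. All 3 antagonists of the inhibitor proteins were detected, from Xaf1, a binding partner of Xiap, at 476 and 566 TPM to Diablo, which displaces caspases from Xiap, at 29.1 and 26.9 TPM.

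**Figure D5:**
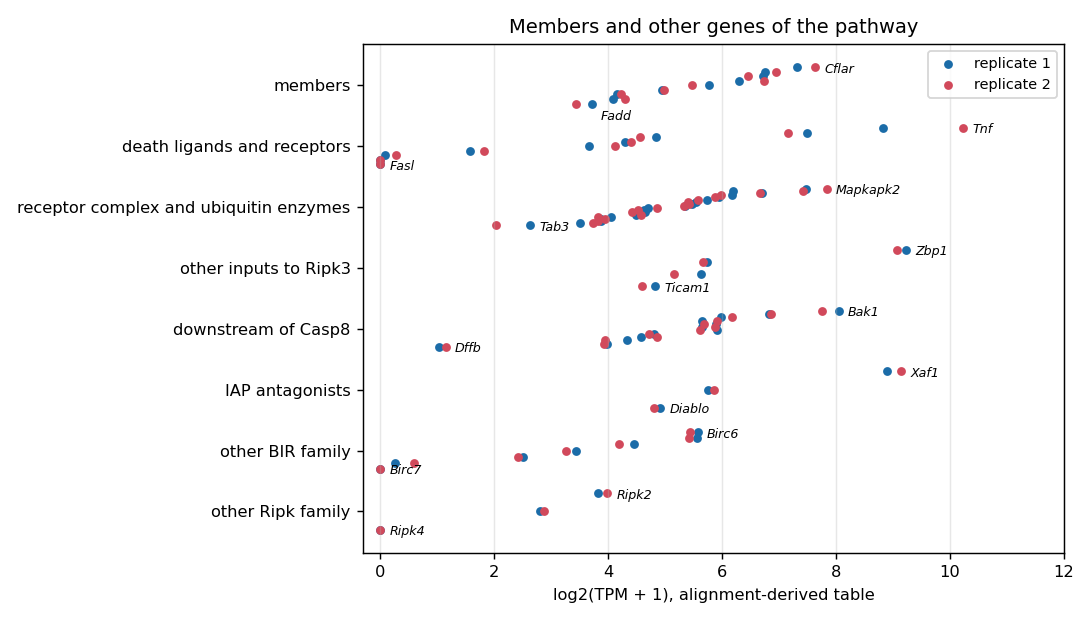
Level of each gene as log2(TPM + 1) in the alignment-derived table for the 9 genes (members) and 7 lists of related genes, with 1 colour per replicate and the highest and lowest gene of each list named. The 9 genes lie between Fadd at 9.82 TPM and Cflar at 197 TPM, and Tnf is the highest gene shown in replicate 2, at 1198 TPM, while Zbp1 is the highest in replicate 1, at 601 TPM.

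Total expected counts were 41938439 in replicate 1 and 30780685 in replicate 2, and counts of the libraries differed beyond sampling noise over 13937 genes, so they were not the same library deposited again. Of the 8 macrophage markers, 8 were detected, at a median of 683 TPM in replicate 1 and 582 TPM in replicate 2. Of these markers, 2 were higher and 6 lower in replicate 2, and 1 was 2-fold higher. Their sums were 16477 TPM in replicate 1 and 18433 TPM in replicate 2. Neutrophil markers summed to 75.3 TPM in replicate 1 and 9.88 TPM in replicate 2 with 2 of 9 detected and Ly6g at 0. T and B cell markers summed to 58.5 and 37.7 TPM with 1 of 7 detected, Cd4 at 58.2 and 37.7 TPM. All 7 stromal markers were detected and higher in replicate 2, summing to 743 and 840 TPM. The neutrophil markers were thus lower and the stromal markers higher in replicate 2, and their part in the ratios above was not tested. In bulk RNA, fewer cells of a type and less RNA per cell cannot be told apart.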

How the data were processed

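Polyadenylated RNA from 2 libraries was analysed, with groups and replicate numbers from the labels. The authors' alignment-derived tables hold expected counts and TPM per gene and transcript, and their FASTQ-derived tables hold estimated counts and TPM per transcript, made from 4 FASTQ files per library, on mm10 with GENCODE M21, per the file headers and deposited notes. Names of the aligner and counter were not given in the sources used here.

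Alignment-derived gene TPM gave the levels. FASTQ-derived transcripts were summed per gene. For ratios, expected counts were rounded, and these used TMM factors (edgeR 4.0.16 in R 4.3.3), a pseudocount of 0.5 and an exact (Clopper-Pearson) 95% interval. Since reads are not independent molecules, intervals and the 3 counts that a 0 allows cover counting error only. With 1 group there was no test and no p-value. A gene was detected at 1 TPM in both libraries. Protein-coding totals and coding lengths came from GENCODE M21, and promoters from RefSeq.

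Named were all 9 genes, their transcripts with at least 10% of the gene's TPM in any table, the highest and lowest gene and each 2-fold gene of every pathway list (marker lists are given as sums and counts), and Tnf, Tnfaip3 and Zbp1. A further gene of this rule is not reported here. Tnfrsf1a, Fas and Cd4 were added after their values were seen. The genes and lists were chosen with earlier results of these data known. Alternatives were DESeq2 1.42.0 size factors, total counts, a pseudocount of 5, other count minimums, the FASTQ-derived and posterior mean TPM, each library alone and, added after seeing the data, protein-coding transcripts only. Scripts in Python 3.11.15 were tested on simulated data.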

Additional observations from a re-analysis of the deposited data

How the results depend on the processing

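All 9 genes were detected in the FASTQ-derived table and with either replicate left out, and 8 at 10 TPM. The count past 2-fold between replicates was 0 under DESeq2 size factors, total counts, FASTQ-derived counts, no count minimum and a minimum of 100 counts. Under DESeq2 size factors, total counts, a pseudocount of 5 and FASTQ-derived counts, the ratios of all 9 genes stayed within their intervals, and the median ratio of 0.04 was -0.02 with FASTQ-derived counts. The median level of the 9 genes, 48.4 TPM, ranged from 43.5 to 53.3 TPM with either replicate left out. Genes with over 10% of TPM in transcripts not annotated as protein coding numbered 3, and 4 from FASTQ or without replicate 1. Levels moved by more than the SD for Ripk3 (17.2 TPM, but 13.5 TPM from FASTQ and 19.4 TPM as posterior mean), Birc2 (14.9 TPM from FASTQ), Birc3 (127 TPM) and Xiap (25.8 TPM). With protein-coding transcripts only, the mean levels were 15.1 TPM for Ripk3, 15.7 TPM for Birc2, 71.6 TPM for Birc3 and 13.9 TPM for Xiap. The cause was not tested. No paired analysis was possible because the study has 1 group. Depth limits some transcript shares: Ripk3-206 and the short Birc3 transcripts rest on under 50 expected counts in each library.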

Other observations

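The wider families of these genes were expressed unevenly. Of 7 other genes with the BIR domain that defines the inhibitor of apoptosis family, 5 were detected, 1 was higher and 5 were lower in replicate 2 among the 6 with 20 counts in each library. Birc6, a large ubiquitin-conjugating member, was the highest at 46.5 TPM in replicate 1 and 42.2 TPM in replicate 2, above Birc2 and Xiap in both libraries, and Birc7 had 0 counts in both. Naip1, an inflammasome sensor, was the only member past 2-fold, with 28 and 49 counts (0.20 and 0.50 TPM) and a log2 ratio of 1.24 (0.56 to 1.99). The Naip genes are near-copies of each other, so their counts are uncertain. Of the 3 other Ripk kinases, 2 were detected. Ripk2, which signals downstream of Nod receptors, had 13.1 and 14.8 TPM, and Ripk4 had 0 counts in both libraries.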
